A study of Mus musculus with 2 samples.

Results

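The genes described here encode the cell death proteases Casp2, Casp4, Casp6, Casp8 and Casp9, the apoptosome scaffold Apaf1, the caspase inhibitor Xiap and the pore-forming protein gasdermin D (Gsdmd). They were taken as every probe set whose platform annotation names exactly 1 of these symbols and no other gene, which gave 18 of 34958 single-gene probe sets and 8 of 18194 genes. The RNA came from neutrophils of C57BL/6 mouse bone marrow (BM), an inbred laboratory strain, with no treatment. A flow cytometer sorted live cells with much Gr-1 and no CD48 on their surface. This was done in 2 independent experiments, each of which gave 1 expression array, called replicate 1 and replicate 2. The study holds this 1 group, and neither the age or sex of the mice nor the number of mice behind a sample is given in the sources used here. No comparison between groups and no test across samples is therefore possible, and a p-value is given for none of the values.

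Caspases are cysteine proteases made as inactive precursors. In apoptosis, initiator caspases are activated on scaffolds: Casp8 under death receptors, Casp9 on Apaf1 once cytochrome c leaves the mitochondria, and Casp2 on the PIDDosome. The initiators then cut executioner caspases, and Xiap holds Casp9 and some of the executioners in check. Casp6 is counted among the executioners. In pyroptosis, a lytic death, inflammatory caspases cut Gsdmd, whose freed end makes pores in the membrane. Mouse Casp4, also called caspase-11, does so in response to bacterial lipopolysaccharide inside the cell. Neutrophils are short-lived cells known to die by apoptosis when not stimulated.

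The RefSeq promoter table (GRCm38.p6) held 10 windows for 7 of the 8 genes, and Gsdmd was not matched. The windows of Casp6, Casp9 and Apaf1 and the first of Casp4 lie before the gene start of the NCBI mouse gene table. Those of Casp2, Casp8 and Xiap and the second of Casp4 lie before other start positions. Over the 250 bases before the start, 5 motifs were searched on both strands: GGGANTTCC (bound by NF-kB), GAAANNGAA (interferon regulatory factors), TTCNNNGAA (STAT factors), GGGCGG (the GC box) and CCAAT. The 3 windows shown are those of the pyroptosis caspase gene Casp4, the only member with a GGGANTTCC match, and of the apoptosome pair Casp9 and Apaf1, the members with over 1 GC box in a window. Capitals mark the 2 GGGANTTCC matches in Casp4 (chr9:5308599-5308848, plus strand) and the GC boxes in Casp9 (chr4:141793362-141793611, plus strand) and Apaf1 (chr10:91082744-91082993, minus strand).
Casp4: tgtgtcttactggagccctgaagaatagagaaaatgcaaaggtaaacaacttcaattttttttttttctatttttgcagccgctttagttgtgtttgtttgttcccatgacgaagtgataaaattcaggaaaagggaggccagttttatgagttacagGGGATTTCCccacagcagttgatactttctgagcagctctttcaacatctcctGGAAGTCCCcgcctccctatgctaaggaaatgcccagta
Casp9: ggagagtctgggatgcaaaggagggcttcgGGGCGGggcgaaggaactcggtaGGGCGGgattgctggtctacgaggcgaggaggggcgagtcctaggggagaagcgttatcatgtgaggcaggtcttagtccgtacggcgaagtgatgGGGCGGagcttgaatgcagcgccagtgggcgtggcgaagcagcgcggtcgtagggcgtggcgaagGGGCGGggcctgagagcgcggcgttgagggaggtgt
Apaf1: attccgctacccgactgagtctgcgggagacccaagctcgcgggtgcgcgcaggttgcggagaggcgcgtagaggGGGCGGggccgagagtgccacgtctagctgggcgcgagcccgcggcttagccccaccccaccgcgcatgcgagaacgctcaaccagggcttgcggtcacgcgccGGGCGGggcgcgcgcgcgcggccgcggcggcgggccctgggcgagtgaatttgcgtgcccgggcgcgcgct
The word GGGATTTCC lay 92 to 84 bases before the Casp4 start and GGAAGTCCC, a match on the other strand, 39 to 31 bases before it. Both were also in the second, overlapping Casp4 window. A GGGANTTCC match was in 1.43% of the 32851 promoter windows in the table and in no window of the other members. A GC box was in 32.7% of all windows, and there were 4 before Casp9, 2 before Apaf1, 1 each before Casp2 and Casp6 and in 2 of the 3 Xiap windows, and none before Casp4 or Casp8. The first Casp4 window had 41.6% G and C, Casp8 39.6%, Casp6 58.4%, Casp2 60.4%, Casp9 66%, Apaf1 75.6% and the Xiap windows 39.2% to 57.6%, beside a median of 52.4% over all windows. CCAAT, present in 33.8% of all windows, was found before Casp2 and Casp8. GAAANNGAA, in 7.13% of all windows, was found in 1 of the 3 Xiap windows, and TTCNNNGAA, in 7.02% of all windows, in none of the members' windows. No match overlapped one of another motif. A match is a string of letters and not a site shown to be bound.

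Values are MAS5 signals, a summary of the probe pairs of a probe set given on a linear scale, deposited after each array had been scaled to the same trimmed mean. The background of an array was set at the 95th percentile of 87 probe sets for 78 sensory receptor genes, 107.7 for replicate 1 and 131.4 for replicate 2. Above background means above this signal on the 2 arrays alike. A gene was called where at least 1 of its probe sets was, and it was read on its brightest probe set. All 12 markers fixed for neutrophils, among them Ltf, Camp and Lcn2, were above background. Of 70 markers of other marrow cells, 19 (27.1%) were. Probe sets differ in how strongly they bind, so signals of different genes were not ranked against each other.

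All 8 genes were above background, through 10 of their 18 probe sets. Over the whole array 40.4% of genes and 35.5% of probe sets were above it. The 8 genes were picked with earlier results of these arrays known, so their complete detection is a description and not a finding. The count was also 10 on replicate 1 alone and on replicate 2 alone, where 40.9% and 38.7% of all probe sets were above it. The other 8 probe sets were not above background on replicate 1 or on replicate 2, between 16.8 and 101.9 on replicate 1 and between 14.5 and 102.5 on replicate 2. They belong to Casp6, Casp9 and Xiap, each of which has another probe set that was above it.

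**Figure D1:**
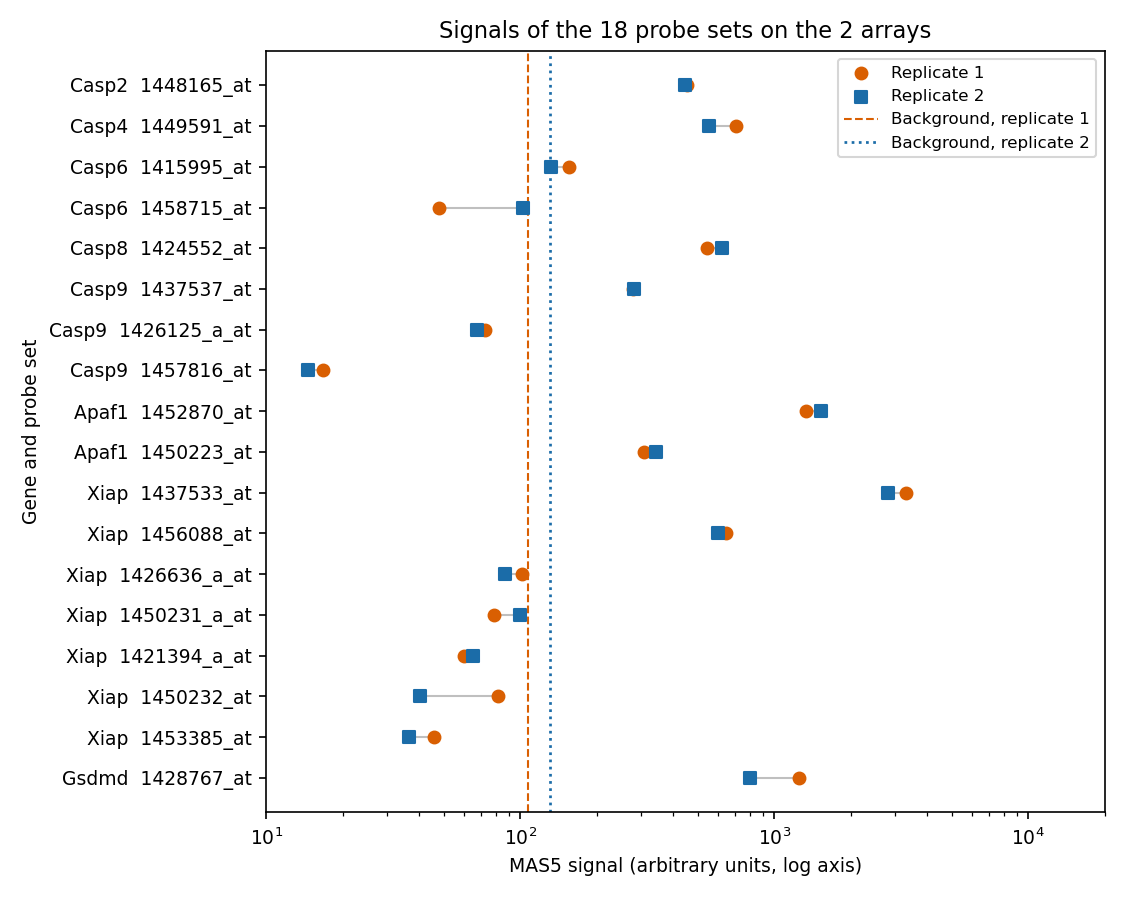
MAS5 signal (log axis) of each of the 18 probe sets on replicate 1 (circles) and replicate 2 (squares), with vertical lines at the background of each array (107.7 and 131.4). Of the 18 pairs, 10 lie right of both lines, and the second signal of Casp6 probe set 1415995_at sits on the line of replicate 2.

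Of the initiator caspases, Casp8, which starts death receptor apoptosis, had signals of 541 on replicate 1 and 623 on replicate 2, a log2 level of 9.18 ± 0.14 (SD, n = 2). Casp2, an initiator linked to DNA damage and to failed cell division, had 454 and 446 on replicates 1 and 2, or 8.81 ± 0.02 (SD, n = 2). Both genes have 1 probe set. The signals were 5.02 and 4.74 times the background for Casp8 and 4.21 and 3.40 times for Casp2. Casp9, the apoptosome's protease, had 278 and 281 on probe set 1437537_at, or 8.13 ± 0.01 (SD, n = 2). Its other probe sets disagreed with that call: 1426125_a_at gave 72.8 and 67.7, and 1457816_at gave 16.8 and 14.5. The 3 Casp9 probe sets were designed on different database sequences, and which transcripts each one reads was not analysed here.

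Apaf1, the scaffold on which Casp9 is activated, was above background on both of its probe sets. Probe set 1452870_at had 1327 on replicate 1 and 1525 on replicate 2, or 10.47 ± 0.14 (SD, n = 2), and 1450223_at had 307 and 343, or 8.34 ± 0.11 (SD, n = 2). Both probe sets were slightly brighter on replicate 2, by 1.15-fold and 1.12-fold. The executioner Casp6, known for cutting nuclear lamin A, was called on 1 of its 2 probe sets, close to the threshold. Its probe set 1415995_at had 156 and 131.9, so on replicate 2 it exceeded the background of 131.4 by less than 1 unit of signal. Its second probe set, 1458715_at, had 47.7 and 102.5, below background on both. Casp6 was no longer called with the 99th percentile as background or with a background read from genes of other organs, and it is the only one of the 8 whose call changed under any background tried.

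Xiap, which binds and blocks Casp9 and some executioner caspases, has 7 probe sets, of which 2 were above background. Probe set 1437533_at had 3298 on replicate 1 and 2796 on replicate 2, or 11.57 ± 0.17 (SD, n = 2), and 1456088_at had 644 and 602, or 9.28 ± 0.07 (SD, n = 2). These are the 2 Xiap probe sets that the platform annotation assigns to 1 shared database sequence. The other 5 lay between 45.9 and 101.9 on replicate 1 and between 36.6 and 100.1 on replicate 2. Of these, 3 were assigned to a second shared sequence. The detection of Xiap thus rests on probe sets of 1 design sequence, measured at 30.6 and 21.3 times the background on the brighter one.

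Of the pyroptosis genes, Casp4 had signals of 705 on replicate 1 and 555 on replicate 2, or 9.29 ± 0.24 (SD, n = 2). Gsdmd had 1253 and 803, or 9.97 ± 0.45 (SD, n = 2), which was the widest spread between the arrays among the 8 genes. Each gene has 1 probe set, and each was brighter on replicate 1, Gsdmd by 1.56-fold and Casp4 by 1.27-fold. The signals were 11.6 and 6.11 times the background for Gsdmd and 6.55 and 4.22 times for Casp4.

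Differences between the arrays are log2 signal on replicate 1 minus replicate 2. Each experiment has a single array, so no replicate check of them exists. None of the 10 probe sets above background differed over 2-fold, where 4.81% of all probe sets above background did. Without the background filter 2 of 18 did, a dim one each of Casp6 and Xiap, where 29.6% of all probe sets did. The difference was 0.64 for Gsdmd, 0.35 for Casp4, 0.24 for Casp6, 0.24 for Xiap and 0.02 for Casp2, and it was -0.02 for Casp9, -0.20 for Apaf1 and -0.20 for Casp8. Of the 8 genes 7 differed by less than 0.5 in size, about the SD of the difference over the 7354 genes above background (0.50). Gsdmd alone lay beyond it, and 16.8% of those genes differed more than Gsdmd. The median of the 8 was 0.13, beside -0.07 over all genes above background, of which 43.7% were higher on replicate 1.

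The direction of the small differences depended on how the arrays were scaled. Casp9 was at 0.12 with median scaling and 0.04 with quantile normalization, so its sign turned. Scaling to the 9 hybridisation controls, bacterial and phage transcripts added to the hybridisation, moved every gene by 0.71 towards replicate 1. All 8 genes were then higher on replicate 1, Apaf1 at 0.51, Casp8 at 0.51 and Gsdmd at 1.36, while the median of all genes above background was 0.64. Gsdmd, Casp4, Casp6, Xiap and Casp2 were higher on replicate 1 under all 4 scalings, and Gsdmd had the highest value of the 8 under each.

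**Figure D2:**
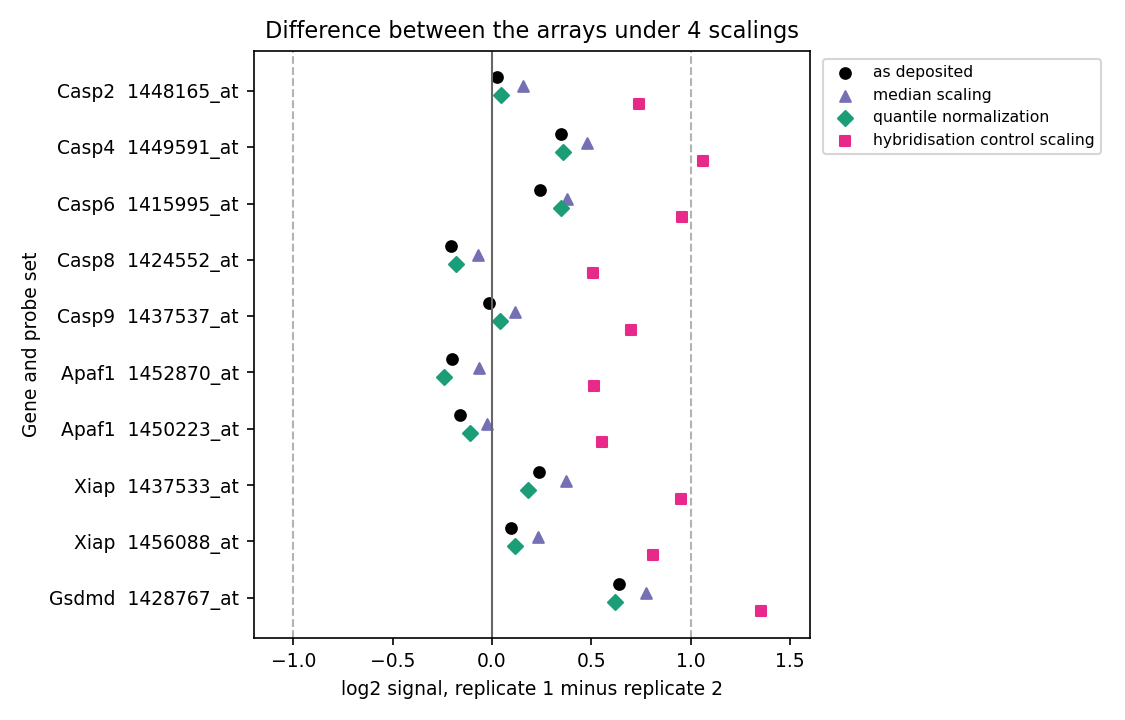
Difference in log2 signal, replicate 1 minus replicate 2, of the 10 probe sets above background, as deposited and after median scaling, quantile normalization and scaling to hybridisation controls; dashed lines mark 2-fold. The 3 scalings other than that to the hybridisation controls lie close together, and Gsdmd is furthest right under each of the 4.

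The arrays also differed in other gene groups. Their lists were chosen with earlier results of these arrays known, so the counts below are a description and not a finding. All 13 proliferation genes above background were higher on replicate 2, with a median of -2.67. Higher on replicate 1 were 9 of 10 genes of neutrophil receptors and cytokines, with a median of 1.19, beside 43.7% of all genes above background. The 12 neutrophil markers, which share Cxcr2 and Csf3r with that list, leaned the other way, with 9 of 12 higher on replicate 2 and a median of -0.40. After quantile normalization 6 of the 12 markers were higher on replicate 1, and 9 of 12 were when the hybridisation controls set the scale. In bulk RNA, fewer cells of a type and less RNA per cell cannot be told apart. Monocytes and macrophages also make Casp4 and Gsdmd, and the summed signals of their marker lists were, like those 2 genes, higher on replicate 1. So were the sums of the dendritic cell, erythroid, and stroma and endothelium lists. Sums of the B cell, T and NK cell, megakaryocyte, progenitor, and eosinophil, basophil and mast cell lists were higher on replicate 2. The monocyte list summed to 5976 on replicate 1 and 3036 on replicate 2, a direction that came from Csf1r alone (5020 and 1928). Without Csf1r the other monocyte markers summed higher on replicate 2. Of the 8 genes in the monocyte list 4 were above background, 2 of them higher on replicate 1 and 2 on replicate 2. The macrophage list summed to 1478 and 857, with 3 of 8 genes above background, all 3 higher on replicate 1. Of the first 3 genes in that list, C1qb had 256 and 163 and was above background. C1qa (104 and 7.45) and C1qc (4.81 and 8.75) were below background on both arrays. The part of these markers, and of proliferation, in the differences of the 8 genes was not tested.

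Around the 8 genes, 50 of 58 further genes of the pathways were measured, and 34 (68%) were above background, beside 40.4% of all genes. Of these, 17 were higher on replicate 1 and 17 on replicate 2, with a median of -0.01. The pathway lists were chosen with earlier results of these arrays known, so their 68% is a description and not a finding. It also depended on the processing. The count was 23 of 50 without probe sets named _x_at, _s_at or _a_at, and 39 without replicate 2. The share of all genes in those settings is not given. Among the other caspases, Casp1, the inflammasome protease that matures interleukin 1 beta and cuts Gsdmd, had 1119 and 791, a difference of 0.50. Casp14, known from the epidermis, had 275 and 274 on 1 of its 2 probe sets, and 9.77 and 5.92 on the other. The brighter one is named _x_at, a kind of probe set left out in an alternative, and the call of Casp14 rests on it. Casp12 was not above background on both arrays: 1 probe set gave 28.7 and 34.2, and the other gave 119 and 7.64, above it on replicate 1 alone.

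**Figure D3:**
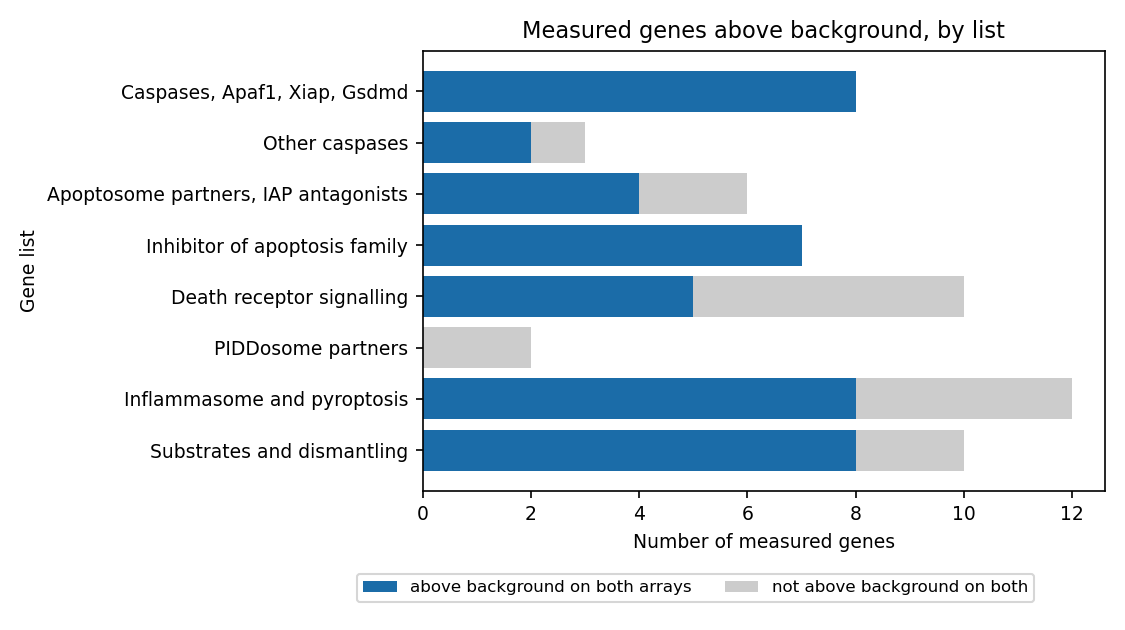
Number of measured genes above background on both arrays (blue) and not (grey) in each gene list. All 7 measured inhibitor of apoptosis genes were above background, and neither of the 2 PIDDosome partners was.

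The partners of the apoptosome were above background in 4 of 6 genes. Cycs, the somatic cytochrome c that triggers Apaf1, had 2464 on replicate 1 and 4649 on replicate 2, a difference of -0.92. Diablo and Htra2 encode mitochondrial proteins that relieve inhibition by Xiap. Diablo had 233 on replicate 1 and 219 on replicate 2, with 1 of its 2 probe sets above background. Htra2 had 195 and 261. Of these 4 genes 3 were higher on replicate 2, against 1 of 4 with scaling to the hybridisation controls. The PIDDosome partners of Casp2 were not above background on both arrays: Pidd1 had 92.8 and 85.9, and Cradd had 143 and 129, above it on replicate 1 alone.

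All 7 measured genes of the inhibitor of apoptosis family besides Xiap were above background. Birc2 and Birc3 encode ubiquitin ligases of tumour necrosis factor signalling. Birc2 had 909 on replicate 1 and 758 on replicate 2, and Birc3 had 2119 and 1300. Birc5 (survivin), which works in mitosis, was the only one of the 7 over 2-fold different, with 150 and 529, a difference of -1.82. The same gene is counted among the proliferation genes. Among genes above background, 3.43% were over 2-fold higher on replicate 2. Naip2, Naip5 and Naip6, named after their values were seen, are close copies of each other, and their probe sets may read each other's RNA.

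Upstream of Casp8, 5 of 10 death receptor genes were above background. The receptor gene Fas had 1036 and 708, and Fadd, the adaptor that recruits Casp8, had 144 and 268. Fadd was above background on 1 of its 2 probe sets. Fasl, the ligand, was not above background (37.6 and 27.6). Cflar, an inhibitor of Casp8 activation named here after its values were seen, had 1335 and 1405 and was above background on all 5 of its probe sets. The necroptosis genes Ripk3 (16.8 and 147) and Mlkl (18.5 and 137), also named after their values were seen, were above background on replicate 2 alone, so no fold is given.

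The inflammasome and pyroptosis list had 8 of 12 genes above background, 6 of them higher on replicate 1, with a median of 0.35. Of all genes above background 43.7% were higher on replicate 1. With scaling to the hybridisation controls 8 of 8 were, but that scaling also put the median of all genes above background at 0.64. The sensor gene Nlrp3 had 236 and 196, and Mefv, which encodes pyrin, had 580 and 450. Aim2, a sensor of DNA in the cytosol, had 149 and 113, so only replicate 1 exceeded its background. Il1b, the cytokine gene whose product leaves the cell through Gsdmd pores, had 8516 and 3194, a difference of 1.41. The same gene is counted among the neutrophil receptors and cytokines. Over 2-fold higher on replicate 1 were 1.97% of all genes above background. The other genes of the list were chosen for naming after their values were seen. Irf2, a transcription factor known to drive mouse Gsdmd, had 723 and 573. Ninj1, which ruptures the membrane after pore formation, had 2516 and 1702. The inflammasome adaptor gene Pycard had 1603 and 2189, and Gsdme, which encodes another gasdermin, had 2084 and 2742. Pycard was above background on 1 of its 3 probe sets. Irf2 and Ninj1 were thus brighter on replicate 1, while Pycard and Gsdme were brighter on replicate 2 as deposited.

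Among substrates of the executioners, 8 of 10 genes were above background. Dffb, the nuclease that cuts DNA in apoptosis, and Dffa, the inhibitor that caspases remove from it, differed in opposite directions as deposited. Dffa had 346 on replicate 1 and 168 on replicate 2, a difference of 1.04, and Dffb had 182 and 321, a difference of -0.81. Each of the 2 genes was above background on 1 of its 2 probe sets, so the opposite directions rest on 1 probe set per gene. Dffa was the second gene of the pathways over 2-fold higher on replicate 1, and with 32 added to the signals its difference was 0.92. Parp1, a DNA repair enzyme cut in apoptosis, had 115 and 90.6, above background on replicate 1 alone. The channel gene Panx1 was above it on neither array (21.3 and 35.9).

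**Figure D4:**
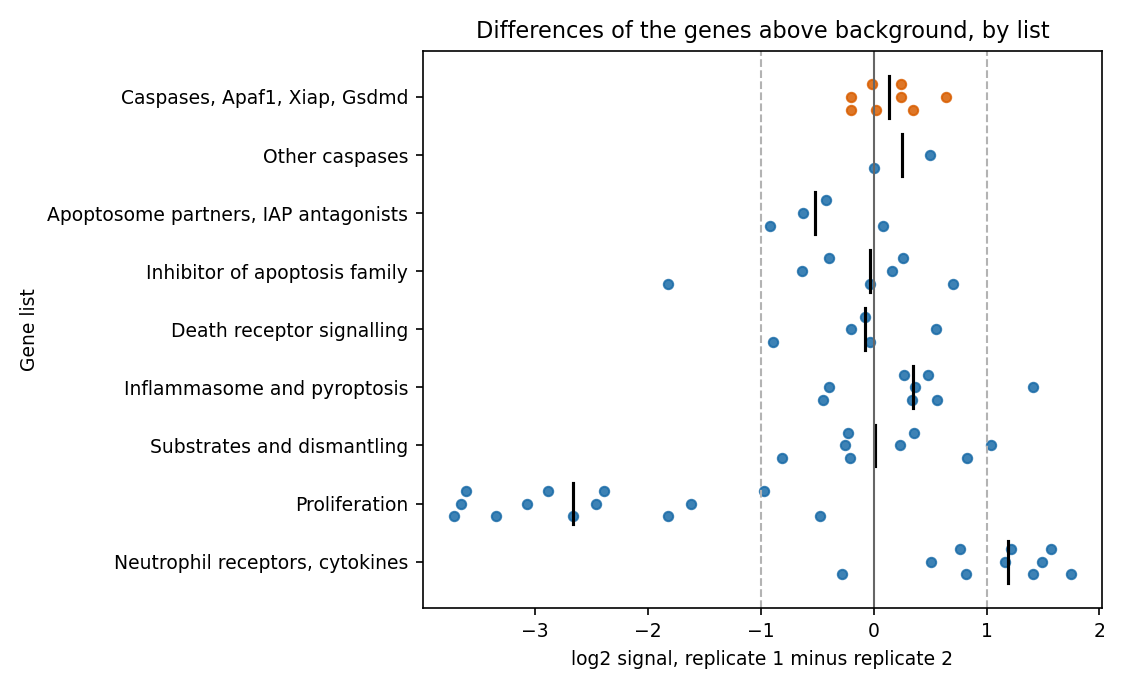
Difference in log2 signal, replicate 1 minus replicate 2, of each gene above background, by gene list; black bars are medians and dashed lines mark 2-fold. The 8 genes described here (orange) lie between -0.20 and 0.64, the proliferation genes between -3.72 and -0.47. Birc5 is drawn under both inhibitor of apoptosis and proliferation, and Il1b under both inflammasome and neutrophil receptors.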

How the data were processed

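Total RNA from sorted neutrophils (200 ng per array) was labelled with a 3' IVT kit and hybridised, per the labels' protocols. The authors deposited 1 linear signal intensity per probe set (45101 on each array), made with MAS5 per the submitters' processing notes, whose version and settings are not stated in the sources used here. With 2 arrays the precision is low. By GEO's annotation of the platform, 34958 probe sets had 1 gene, 932 several and 9211 none. All 8 symbols were the same in the NCBI mouse gene table (GRCm38.p6).

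From these values log2 signals (floored at 1), background calls and differences were computed with Python 3.11.15, pandas 2.3.3 and numpy 2.4.6, and figures drawn with matplotlib 3.10.9. The code for the calls and differences was run on simulated data, with large changes in bright probe sets and a smaller spread than between these arrays. That run does not bear on dim calls or on small differences. Genes to name were set by rule: all 8 genes, the first 3 measured genes of each other list, genes whose call goes against over 75% of their list, and pathway genes over 2-fold different. Genes named beyond it are marked. Any correlation over 2 arrays is 1 or -1, so no gene was named for a like pattern. The genes and lists were chosen with earlier results of these data known. Alternatives were other backgrounds, scalings, probe set rules, 32 added to the signals, no background filter and each array alone. The labels call the experiments independent without naming animals, so the spread between the arrays may be technical in part.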

Additional observations from a re-analysis of the deposited data

How the results depend on the processing

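All 8 genes were above background with the 90th percentile of the sensory receptor probe sets, on each array taken alone and without the probe sets named _x_at, _s_at or _a_at. With the 99th percentile, or with a background read from genes of other organs, Casp6 was lost, which left 7 genes and 9 probe sets. On each array taken alone 10 probe sets were above background. The number of probe sets over 2-fold different was 0 of 10, and it became 2 of 10 with scaling to hybridisation controls (Gsdmd and Casp4) and 2 of 18 with no background filter (1 each of Casp6 and Xiap, both below background). The median difference of the 8 genes, 0.13, was 0.85 with scaling to hybridisation controls, which shifts all genes alike, and 0.10 to 0.27 under the other alternatives. The count of pathway genes above background, 34 of 50, was 36 without replicate 1 and 39 without replicate 2, and 23 to 37 under the other alternatives. The share of all genes above background under each of these settings is not given here. Whether the pathway genes stayed above that share is therefore not known. Dim signals limit Casp6, whose call rests on less than 1 unit of signal. No paired analysis was possible because the study holds 1 group with 1 array per replicate number.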
